A study of Sus scrofa with 14 samples.

Results

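The growth hormone and insulin-like growth factor (IGF) axis was followed in the porcine mammary gland through 9 genes chosen by name: IGF1, IGF2, GHR, IGF1R, INSR, IGFBP2, IGFBP3, IGFBP4 and IGFBP5. Of these, 7 were measured among the 30071 gene identifiers counted, and IGF2 and IGFBP3 were not analysed here because no identifier could be paired with them. Growth hormone from the pituitary binds its receptor GHR, which signals through JAK2 and STAT5 and raises IGF1 synthesis in liver and in many local tissues. IGF1 acts on IGF1R and, more weakly, on the insulin receptor INSR, while IGF binding proteins (IGFBPs) carry the ligand and either hold it back or deliver it. In the mammary gland the axis is known for ductal growth, for the maintenance of milk secretion and, through IGFBP5, for the involution that follows weaning.

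Single-nucleus RNA sequencing covered mammary glands of 10 sows, 2 at each of day 90 of gestation (G90), day 0 (L0) and day 20 (L20) of lactation and day 2 (PI2) and day 7 (PI7) of natural involution. All groups were multiparous sows in their next breeding cycle after the first, on normal diets, with no treatment named. Gland sections, 1 each at G90 and PI2, were profiled by spatial transcriptomics, and cells from 1 colostrum (L0) and 1 milk (L20) sample were sequenced singly.

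Each value is a count of unique molecular identifiers (UMIs), where a UMI marks an RNA molecule, and levels are given as UMIs per 1000000 UMIs of the same nuclei (CPM). Nuclei were sorted into 10 cell classes by marker genes that include no gene of the axis, and a class entered when a sow had at least 20 such nuclei. The gland libraries held 18962138 to 53165191 UMIs and 9332 to 18693 nuclei after filtering, of which 75.9% to 89.4% received a class. Each list of markers kept out of the sorting was higher in its own class than in any other class of the same gland, in every gland tested. Adipocyte nuclei reached 20 in only 3 sows, with 379 in L20 replicate 2, 22 in PI2 replicate 1 and 20 in PI7 replicate 1, and mural nuclei did so in 5 sows. L20 replicate 2 stood apart, with 31.2% fibroblast nuclei against 0.50% to 11.7% in the other glands, and the class values of members that rest on it are given without it. T and NK nuclei, which make no milk, held 37.2 to 2987 CPM of casein UMIs against 221.8 to 11202 CPM in luminal nuclei, and the part of free RNA, doublets and wrongly sorted nuclei in these was not tested. Luminal casein stood at 796.9 and 503.4 CPM at L20, against 11202 and 8057 CPM at L0. It stood at 1593 and 8467 CPM at G90 and at 514.6 and 939.5 CPM at PI2. The L20 glands are thus grouped with L0 as lactation by their stage label, not by their casein level. Pairs of gland libraries shared 52 to 205 barcodes.

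In Sscrofa11.1, GHR lies on chromosome 16 from 27126300 to 27422618, IGF1 on chromosome 5 from 81762027 to 81909253, IGF1R on chromosome 1 from 137383623 to 137691038 and INSR on chromosome 2 from 71797209 to 71939923. IGFBP4 lies on chromosome 12 from 21966524 to 21980043. IGFBP2 (118822092 to 118850985) and IGFBP5 (118861816 to 118877787) are neighbours on chromosome 15, on opposite strands and 10830 bp apart. In the RefSeq annotation IGF1 overlaps 2 uncharacterised loci on the opposite strand and IGF1R overlaps PGPEP1L on the opposite strand. The sources used here do not say whether counting used strand, so reads of these partners cannot be told apart from those of IGF1 and IGF1R.

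The members were distributed unevenly over cell classes. UMIs were summed per sow and class, and each class was compared with the mean of the other classes by edgeR's quasi-likelihood test with the sow as a block. A gene was called at a Benjamini-Hochberg adjusted p under 0.05 over 12840 genes and an absolute log2 fold change over 1. Of the 70 pairs of member and class, 37 were called, 20 higher and 17 lower, against 14.6% of all pairs of gene and class. The members were chosen with earlier results of these data known, so this is a description and no test of the set. Over all classes together, 8.46% of gene and class pairs were called higher and 6.11% lower. Fibroblasts held 5 members called higher and none lower, where 9.37% of all genes were called higher and 1.43% lower. Blood endothelial nuclei held 4 higher and none lower (9.09% and 1.5% of all genes). Adipocyte nuclei held 3 higher and 2 lower (9.12% and 9.23%), myoepithelial nuclei 3 and 1 (7.76% and 6.28%), lymphatic endothelial nuclei 2 and none (8.40% and 3.48%) and mural nuclei 1 and none (6.67% and 3.29%). In luminal nuclei, which line the ducts and alveoli and make milk, 4 members were called lower (13.4% of all genes) and 1 higher (9.90%). The immune classes leaned the same way, with 1 higher and 3 lower in macrophage nuclei (9.65% and 8.54%), none and 4 in T and NK nuclei (7.77% and 8.43%) and none and 3 in B and plasma nuclei (6.83% and 5.52%).

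**Figure D1:**
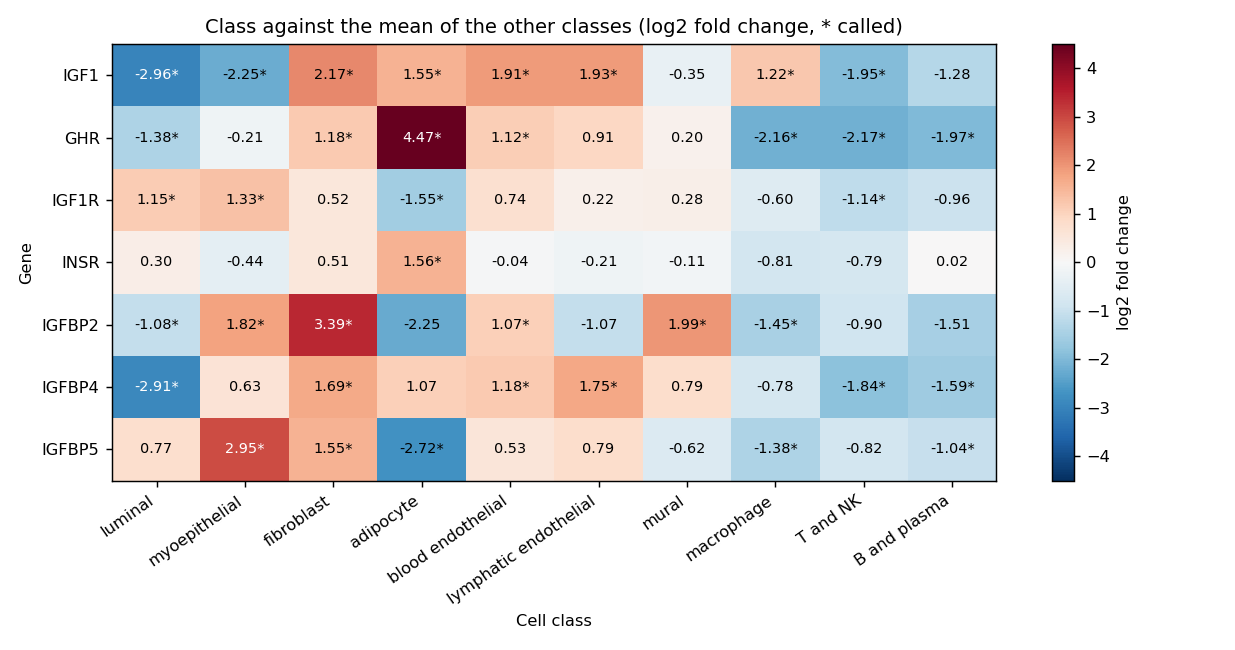
Log2 fold change of each member (rows) in each cell class (columns) against the mean of the other classes, with the value printed in each cell and a star where it was called. The highest value is GHR in adipocyte nuclei (4.47), and the lowest is IGF1 in luminal nuclei (−2.96).

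IGF1, the ligand, had higher levels in fibroblast, endothelial and macrophage nuclei than in epithelial nuclei. In fibroblast nuclei it ranged from 29.98 CPM (L0 replicate 1) through a median of 91.1 to 213.7 CPM (G90 replicate 2) over 10 sows. In luminal nuclei it ranged from 1.74 through a median of 3.004 to 10.4 CPM, so that the classes did not overlap. Between fibroblast and luminal nuclei 24.8% of all genes were called, and the share of all genes without overlap was not counted. Of the IGF1 UMIs of sorted nuclei, luminal nuclei still held a median of 17.0% (2.45% to 45.6%) and fibroblast nuclei 35.3% (2.94% to 64.7%). Blood endothelial nuclei held 42.9 to 186.2 CPM with a median of 80.6, and lymphatic endothelial nuclei held 58.4 to 198.4 CPM with a median of 90.6 in 9 sows. Macrophage nuclei held 8.87 to 124.6 CPM with a median of 69.6. Mural nuclei, which were not called, held 0 to 76.5 CPM with a median of 12.2 in 5 sows.

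IGF1 was higher in fibroblast nuclei than in luminal nuclei of the same sow in 10 of 10 sows, and the same held for blood endothelial and for macrophage nuclei. Against the mean of the other classes, the log2 fold change was 2.17 in fibroblast, 1.93 in lymphatic endothelial, 1.91 in blood endothelial and 1.22 in macrophage nuclei. It was −2.96 in luminal, −2.25 in myoepithelial and −1.95 in T and NK nuclei. In the 3 sows with enough adipocyte nuclei IGF1 stood at 77.7, 76.8 and 106.6 CPM, with a fold change of 1.55 (SE 0.49, edgeR adjusted p = 0.0153). The call was lost without L20 replicate 2 (1.86, edgeR adjusted p = 0.143), without PI2 replicate 1 (1.36, 0.0677) and without PI7 replicate 1 (1.49, 0.0555). In the order of the fitted levels, no neighbouring classes differed by a called amount in IGF1.

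A median of 0.641% of luminal nuclei held an IGF1 UMI, against 0.583% of T and NK nuclei. The median depth was 1635 to 3716 UMIs per luminal nucleus and 716 to 1453 UMIs per T and NK nucleus. These shares lie close to each other at unequal depth, and the part of free RNA in them was not tested.

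**Figure D2:**
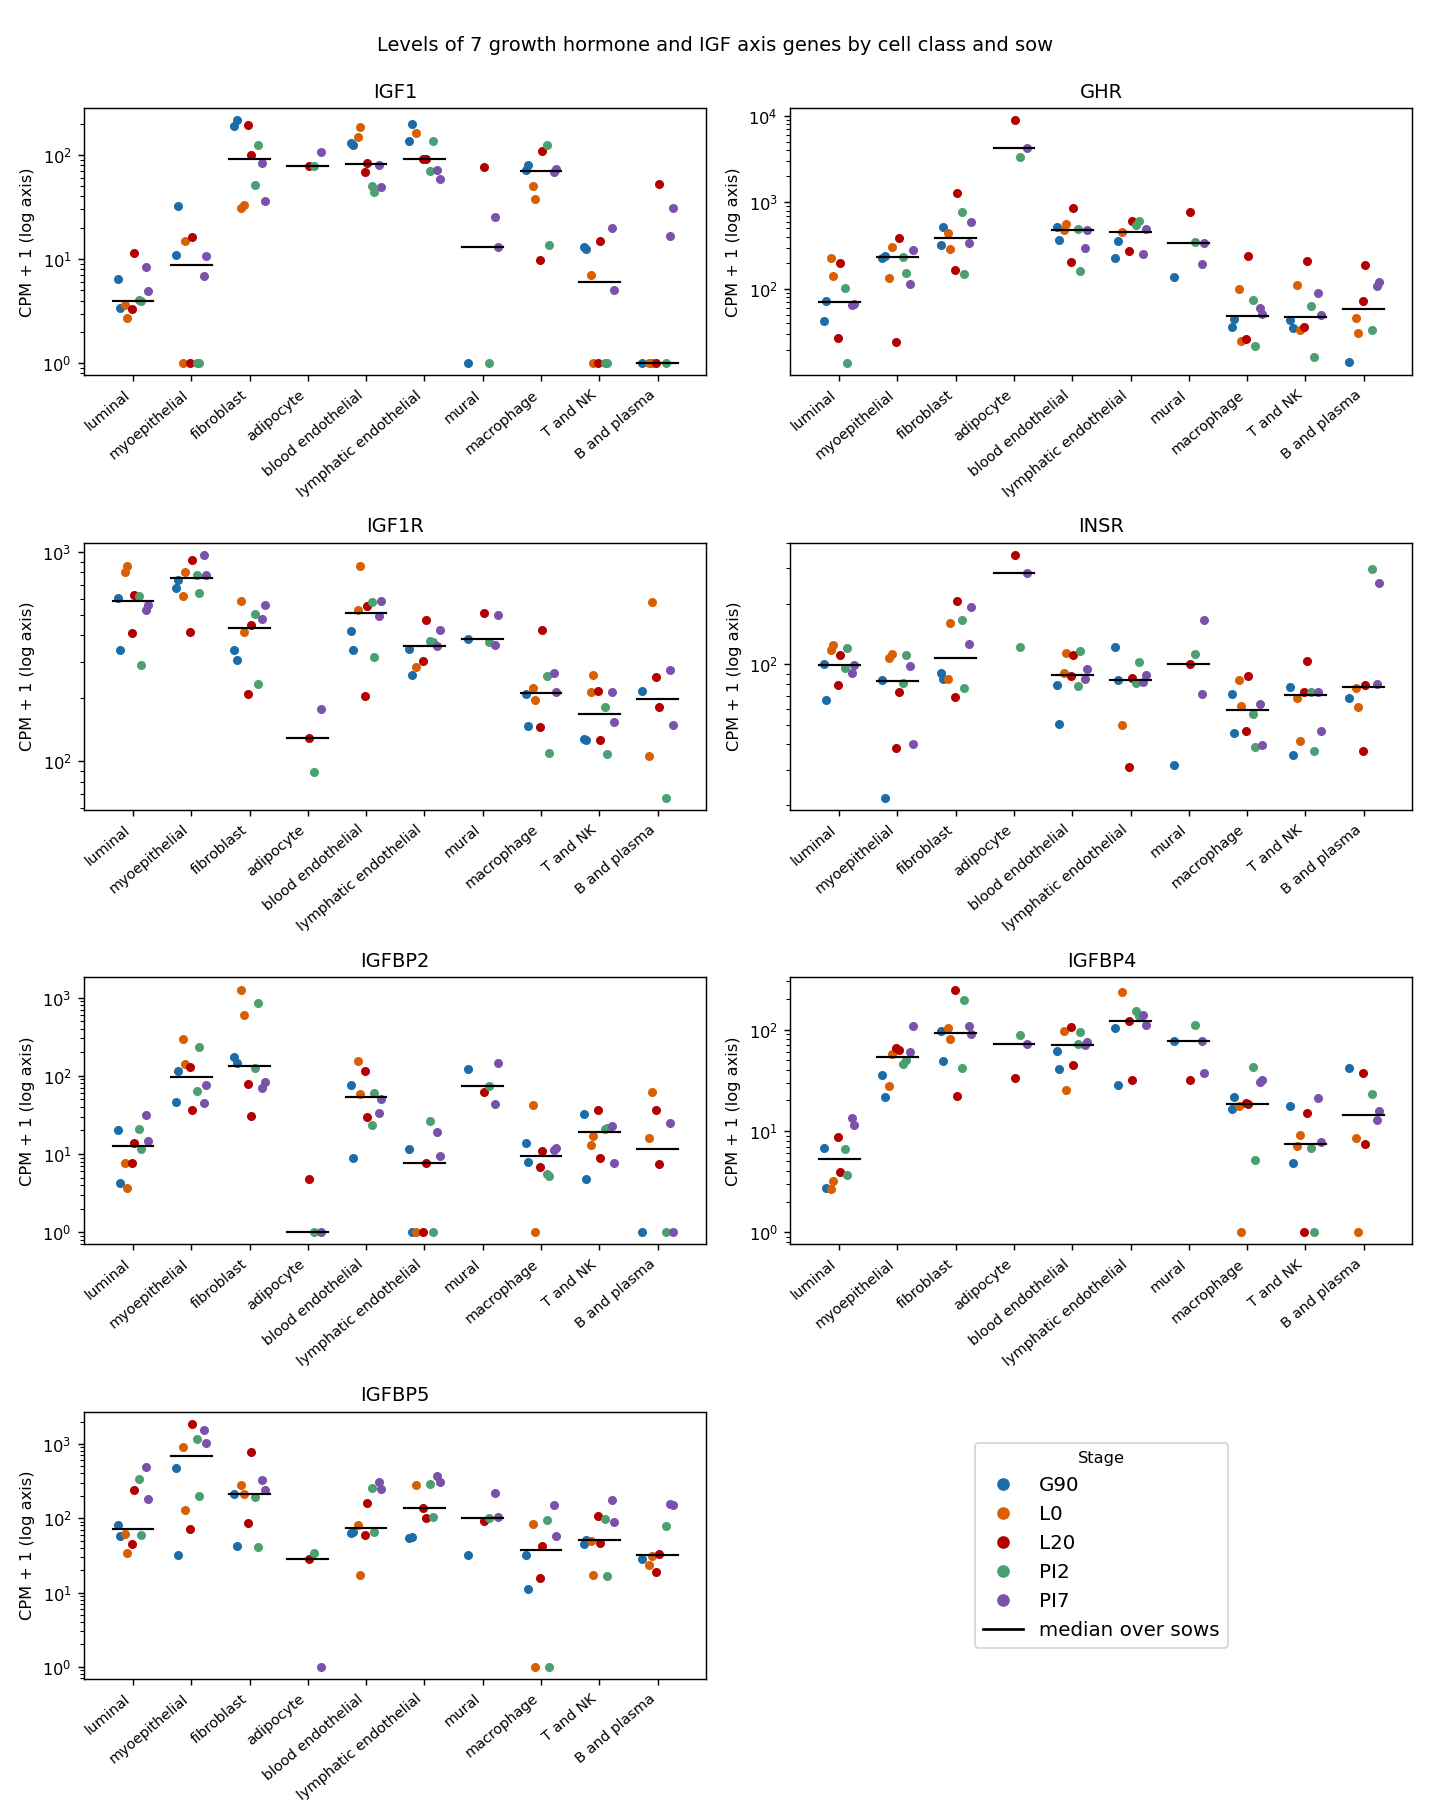
Level of each member (CPM + 1, log axis) in each sow with at least 20 nuclei of a class, with points coloured by stage and a line at the median over sows. GHR in adipocyte nuclei lies between 3346 and 8839 CPM, above every other class of any sow, and IGF1 lies at 1.74 to 10.4 CPM in luminal nuclei.

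GHR, the growth hormone receptor, stood highest in adipocyte nuclei. It reached 8839 CPM in L20 replicate 2, 3346 CPM in PI2 replicate 1 and 4230 CPM in PI7 replicate 1, from 14109, 305 and 238 UMIs, and 90.91% to 95% of these nuclei held a GHR UMI. No other class of any sow exceeded 1297 CPM, the value of fibroblast nuclei in L20 replicate 2. The log2 fold change against the other classes was 4.47 (SE 0.24, edgeR adjusted p = 6.43e-29), and it was 4.23 without L20 replicate 2. Between adipocyte and fibroblast nuclei, the next class, it was 2.96 (SE 0.32, edgeR adjusted p = 3.75e-12), and 17.5% of all genes were called between these classes.

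Fibroblast nuclei held a median of 390.0 CPM of GHR and blood endothelial nuclei 477.3 CPM, with log2 fold changes of 1.18 and 1.12. Both were above the luminal nuclei of the same sow in 10 of 10 sows, and the blood endothelial value was 0.93 without G90 replicate 1, under the fold threshold. Lymphatic endothelial nuclei (224.8 to 612.6 CPM) and mural nuclei (137.9 to 780.6 CPM) were not called. Luminal nuclei held 12.9 to 228.8 CPM with a median of 69.2, and their fold change of −1.38 became −0.87, under the fold threshold, when adipocyte nuclei were left out of the fit. Myoepithelial nuclei, the contractile cells around the alveoli, held a median of 230.2 CPM and stood above luminal nuclei by 1.05 on the log2 scale (SE 0.26, edgeR adjusted p = 6.48e-04), a direction seen in 8 of 10 sows.

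L20 replicate 2 held the highest GHR level in 9 of the 10 classes, T and NK nuclei (208.5 CPM) and macrophage nuclei (241.2 CPM) included. The medians of these classes were 45.9 and 47.4 CPM, and the log2 fold changes of −2.17 and −2.16 were −2.21 and −2.26 without this gland. The same gland held 2.50% adipocyte nuclei, and their part in its GHR level in other classes was not tested.

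IGF1R, the receptor through which IGF1 acts, was higher in myoepithelial nuclei (413.8 to 968.4 CPM, median 754.7) and luminal nuclei (287.4 to 855.7 CPM, median 580.3). Against the mean of the other classes the log2 fold changes were 1.33 and 1.15, and these 2 classes did not differ by a called amount (0.17, SE 0.16). Blood endothelial nuclei followed at 203.5 to 858.3 CPM with a median of 511.6. Luminal nuclei stood above them by 0.37 on the log2 scale (SE 0.16), which was not called. Fibroblast and mural nuclei had medians of 432.5 and 383.0 CPM. Every one of the 10 sows had more IGF1R in luminal than in T and NK nuclei, whose median was 167.1 CPM. Adipocyte nuclei stood at 129.1, 87.8 and 177.7 CPM with a fold change of −1.55 (−1.90 without L20 replicate 2), below the luminal nuclei of the same sow in 3 of 3 sows.

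Luminal nuclei held a median of 88.8% of the IGF1R UMIs of all sorted nuclei in a gland, from 24.9% in L20 replicate 2, where fibroblast nuclei (4723) outnumbered luminal nuclei (1440), to 98.3%. The luminal call rested on the fold threshold: with RLE size factors the fold change was 0.81 and with DESeq2 0.82, at adjusted p = 1.74e-09 and 4.78e-13. It was 0.99 with the adipocyte class and L20 replicate 2 left out. The median of all genes in luminal nuclei was 0.146 in the main scaling and −0.135 with RLE size factors. The luminal split of calls was 1271 higher and 1726 lower in the main scaling, and 824 and 2293 with RLE size factors. That of B and plasma nuclei moved from 877 and 709 to 1347 and 373, and that of mural nuclei from 856 and 423 to 1001 and 225.

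INSR, the insulin receptor, was the most even of the members by the number of classes called. Its class medians lay between 58.1 CPM in macrophage nuclei and 106.9 CPM in fibroblast nuclei outside adipocytes. Adipocyte nuclei held 348.9, 120.7 and 284.4 CPM, above luminal nuclei in 3 of 3 sows and above fibroblast nuclei in 2 of 3 (120.7 against 164.4 CPM in PI2 replicate 1), and the fold change of 1.56 (SE 0.28, edgeR adjusted p = 4.98e-06) was the only call. Without L20 replicate 2 it was 0.88 with an adjusted p of 0.208.

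IGFBP2, which binds IGF1 and IGF2 in the fluid around cells, had its highest fitted level in fibroblasts. Fibroblast nuclei held 29.4 CPM (L20 replicate 2) to 1266 CPM (L0 replicate 1) with a median of 133.7, and a fold change of 3.39. Mural nuclei (42.0 to 146.5 CPM) and myoepithelial nuclei (36.1 to 294.3 CPM) followed with 1.99 and 1.82. Fibroblast nuclei lay above myoepithelial nuclei in 8 of 10 sows, and below them in both L20 glands (76.7 against 130.2 CPM and 29.4 against 36.1 CPM). They lay above mural nuclei in 3 of 5 sows, and that log2 difference of 1.26 (SE 0.55, edgeR adjusted p = 0.130) was not called. The mural call was lost without PI7 replicate 2 (1.54, edgeR adjusted p = 0.136). Blood endothelial nuclei were called at 1.07, close to the fold threshold, and came under it in 6 alternatives, among them without G90 replicate 1 (0.95), without L0 replicate 1 (0.97) and without L20 replicate 1 (0.84).

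Luminal nuclei held 2.69 to 30.9 CPM of IGFBP2, below the fibroblast and the myoepithelial nuclei of the same sow in 10 of 10 sows. Their fold change was −1.08, and it lay between −0.96 and −0.87, under the fold threshold, when G90 replicate 2, L0 replicate 1, L0 replicate 2, L20 replicate 1 or PI2 replicate 2 was left out. The macrophage fold change was −1.45. In 421 adipocyte nuclei 6 IGFBP2 UMIs were counted, all in L20 replicate 2, so that no IGFBP2 fold change against the mean of the other classes could be estimated without that gland. With the adipocyte class left out as well, the fold change was −1.47 in luminal, −1.97 in macrophage, 3.36 in fibroblast, 1.69 in myoepithelial and 1.78 in mural nuclei, all called, and 0.81 in blood endothelial nuclei, not called.

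IGFBP4, which in most settings restrains IGF1 until a protease cuts it, followed the stroma and vessels. Lymphatic endothelial nuclei held 27.5 to 233.9 CPM with a median of 120.1, and fibroblast nuclei 21.1 to 247.4 CPM with a median of 92.5. Their fold changes were 1.75 and 1.69, and blood endothelial nuclei followed with 1.18. Luminal nuclei held 1.69 to 12.4 CPM, below fibroblast nuclei in 10 of 10 sows and with a fold change of −2.91. Myoepithelial nuclei exceeded luminal nuclei by 3.19 on the log2 scale (SE 0.29, edgeR adjusted p = 9.41e-16), where 17.7% of all genes were called between these classes. In B and plasma nuclei the fold change of −1.59 was −1.39 without PI7 replicate 1 (adjusted p = 0.0557).

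IGFBP5, the binding protein best known from the involuting gland, was led by myoepithelial nuclei. They held 31.1 CPM (G90 replicate 2) to 1850 CPM (L20 replicate 2) with a median of 691.7, and the fold change was 2.95. They exceeded luminal nuclei in 9 of 10 sows and fibroblast nuclei in 7 of 10 sows, the latter with a log2 fold change of 1.26 (SE 0.28, edgeR adjusted p = 1.77e-04, with 15.4% of all genes called between these classes). Fibroblast nuclei (39.4 to 787.6 CPM) were called at 1.55 (1.32 without L20 replicate 2, and 0.89, under the fold threshold, without that gland and the adipocyte class), and luminal nuclei (32.7 to 494.9 CPM) were not called. Adipocyte nuclei held 44 UMIs in L20 replicate 2, 3 in PI2 replicate 1 and none in PI7 replicate 1, with a fold change of −2.72. It was −3.88 without L20 replicate 2, and −2.28 without the sow block, where the call was lost (adjusted p = 0.106). B and plasma nuclei (−1.04) lost the call in 9 alternatives, among them without G90 replicate 1 (−1.01), L0 replicate 1 (−0.94), L20 replicate 2 (−0.67) or PI7 replicate 1 (−1.12), where the adjusted p ran from 0.0775 to 0.267.

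Over the 85 sums of a sow and a class, the genes whose log2(CPM + 1) ran most like a member were found by Pearson's r among 11155 genes. These sums share sows and differ in depth, so r is a description. GHR ran most like PLSCR4 (0.764), FBXL7 (0.759) and ZBTB20 (0.752). IGF1 ran most like CALCRL (0.741), a gene of the adrenomedullin receptor, JCAD (0.698) and ACKR3 (0.682). IGFBP4 ran most like COL4A1 (0.774) and COL4A2 (0.764), chains of basement membrane collagen, and CAVIN1 (0.758), a gene of caveolae.

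IGF1R ran most like ACVR2A (0.723), an activin receptor, PKP4 (0.708) and DOCK1 (0.706). IGFBP2 ran most like VGLL3 (0.683), GEM (0.680) and MME (0.673). IGFBP5 ran most like ADAMTS3 (0.696), CFI (0.692) and CCN2 (0.645). INSR, with SETD7 (0.603), PI4K2B (0.554) and FAM214A (0.534), had the weakest likeness. Among the members, GHR and IGF1 had r = 0.578, and IGF1 and IGF1R had r = 0.00758.

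Luminal nuclei include hormone-sensing cells, which carry receptors for steroid hormones and prolactin and pass signals on to their neighbours. Hormone-sensing nuclei were marked by at least 3 of 7 genes listed for such cells, not all of them hormone receptors. They were compared with the other luminal nuclei in each sow. IGFBP2 was the only member called, with a log2 fold change of 2.54 (SE 0.41, edgeR adjusted p = 0.00137), where 2.53% of 14089 genes were called higher. The hormone-sensing nuclei exceeded the others in 9 of 10 sows. At G90 it stood at 38.7 and 8.74 CPM in them against 12.7 and 2.95 CPM in the others. At L0 it stood at 5.64 and 3.03 against 6.76 and 2.66 CPM, and at L20 at 15.0 and 48.4 against 6.26 and 5.24 CPM. At PI2 it stood at 99.0 and 163.7 against 10.2 and 6.21 CPM, and at PI7 at 94.0 and 96.8 against 12.5 and 6.47 CPM.

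The L0 glands thus showed little difference in IGFBP2, and the 4 involuting glands held the highest levels in hormone-sensing nuclei. In both L0 glands the genes held out for checking this mark were not higher in the marked nuclei (24.9 against 27.4 and 24.2 against 25.8 CPM). The mark was thus not borne out there. Marked nuclei were deeper in every gland, with medians of 3466 to 5977 UMIs against 1618 to 3421 in the others. The medians were 5676 against 1907 UMIs in PI2 replicate 2, where the IGFBP2 difference was widest. The part of depth in the result was not tested. GHR in these nuclei was higher in 4 of 10 sows, and IGF1R in 2 of 10 sows.

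Between stages no member was called. In the sum over all nuclei of a gland, 0 of 35 pairs of member and contrast were called by edgeR, where 0% of all genes were called in each of the 5 contrasts. Of these pairs, 6 had an unadjusted p under 0.05, and DESeq2 called 1. In these sums a lower share of a cell type and less RNA per cell cannot be told apart. Within 8 cell classes, 0 of 235 pairs were called, 18 had an unadjusted p under 0.05, and DESeq2 called 2. Counts of unadjusted p and of DESeq2 calls stand without the share of all genes, so no change of the members is read from them. Few genes of any kind were called within classes. The share was 0.244% (L0 against G90), 0.466% (L20 against L0), 0.222% (PI7 against PI2) and 0.200% (lactation against the other glands) in B and plasma nuclei. In luminal nuclei it was 0.00503% (L0 against G90) and 0.0101% (lactation), in macrophage nuclei 0.0298% (L0 against G90) and 0.0398% (L20 against L0), and in T and NK nuclei 0.0463% (L0 against G90). In lymphatic endothelial nuclei it was 0.0104% (L0 against G90 and lactation) and 0.0520% (L20 against L0), and it was 0% in every other class and contrast tested. With 2 sows per stage, the values below are therefore a description.

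IGFBP2 and IGF1 in fibroblast nuclei had the lowest unadjusted p-values. IGFBP2 stood at 171.8 and 142.9 CPM at G90, at 1266 and 592.4 CPM at L0, at 76.7 and 29.4 CPM at L20, at 124.6 and 854.6 CPM at PI2, and at 69.6 and 82.3 CPM at PI7. Both L0 sows lay above both G90 and both L20 sows, and PI2 replicate 2 stood with the L0 sows. The log2 difference of L20 from L0 was −4.19 (SE 0.85, edgeR adjusted p = 0.233), and DESeq2 called it at −4.11 (adjusted p = 1.94e-04).

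IGF1 in fibroblast nuclei stood at 188.6 and 213.7 CPM at G90, at 29.98 and 32.0 CPM at L0, at 191.2 and 99.2 CPM at L20, at 50.1 and 124.9 CPM at PI2, and at 82.9 and 34.8 CPM at PI7. Both L0 values lay below all others, but they rest on 14 UMIs (exact Poisson 95% interval 16.4 to 50.3 CPM) and 2 UMIs (3.88 to 115.7 CPM), and the latter interval takes in the values of L20 replicate 2, PI2 replicate 1 and both PI7 sows. The luminal markers kept out of the sorting stood at 6555 and 2225 CPM in the fibroblast nuclei of L0, at 658.0 and 2100 CPM in those of G90 and at 111.0 to 880.3 CPM in those of the other stages, while the fibroblast markers stood at 3734 and 2610 CPM at L0 and 3237 to 4682 CPM elsewhere. The part of luminal RNA in the L0 values of IGF1 and IGFBP2 was not tested. L0 differed from G90 by −2.72 (SE 0.70, edgeR adjusted p = 0.764) and L20 from L0 by 2.23 (SE 0.70, edgeR adjusted p = 0.690). L0 replicate 2 held only 47 fibroblast nuclei, and its IGFBP2 value rests on 37 UMIs (417.1 to 816.5 CPM).

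In luminal nuclei GHR stood at 41.4 and 72.5 CPM at G90, 228.8 and 141.3 CPM at L0, 26.1 and 198.8 CPM at L20, 101.3 and 12.9 CPM at PI2, and 64.2 and 65.8 CPM at PI7. Both L0 sows lay above both G90 sows, while the sows of L20 and of PI2 differed widely from each other. IGF1R in luminal nuclei stood at 601.5 and 337.9 CPM at G90, 804.9 and 855.7 CPM at L0, 411.5 and 623.2 CPM at L20, 616.5 and 287.4 CPM at PI2, and 530.9 and 559.1 CPM at PI7. Both L0 sows lay above all others, with a log2 difference of 1.24 from G90 (SE 0.41, edgeR adjusted p = 0.271). INSR in luminal nuclei stayed between 65.5 and 124.0 CPM in all sows.

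IGFBP5 in myoepithelial nuclei stood at 473.8 and 31.1 CPM at G90, 909.6 and 126.1 CPM at L0, 69.7 and 1850 CPM at L20, 1174 and 195.1 CPM at PI2, and 1532 and 1024 CPM at PI7. The sows of each stage before PI7 lay far apart, and both PI7 sows lay above both G90 and both L0 sows. In luminal nuclei it stood at 78.8 and 57.4 CPM at G90, 61.2 and 32.7 CPM at L0, 44.3 and 236.7 CPM at L20, 337.4 and 57.9 CPM at PI2, and 494.9 and 180.9 CPM at PI7. Both PI7 sows lay above all others but L20 replicate 2 and PI2 replicate 1, and no stage contrast was called. PI7 replicate 1 held the highest IGFBP5 level in 7 of the 10 classes, T and NK nuclei (174.6 CPM, class median 49.1) and macrophage nuclei (150.1 CPM, class median 36.0) included, and the part of this gland-wide level in the luminal values was not tested. Whether the lactation effect of a class differed from that of luminal nuclei was tested for 7 classes, after the data had been seen. No member was called, and the lowest adjusted p was that of GHR in myoepithelial nuclei (log2 difference −1.93, SE 0.49, edgeR adjusted p = 0.0856), where 0.0343% of genes were called. In the other classes 0% (B and plasma) to 0.0686% (macrophage) of genes were called, with 0.0343% in T and NK, 0.00857% in fibroblast, 0.0514% in lymphatic and 0.0600% in blood endothelial nuclei.

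**Figure D3:**
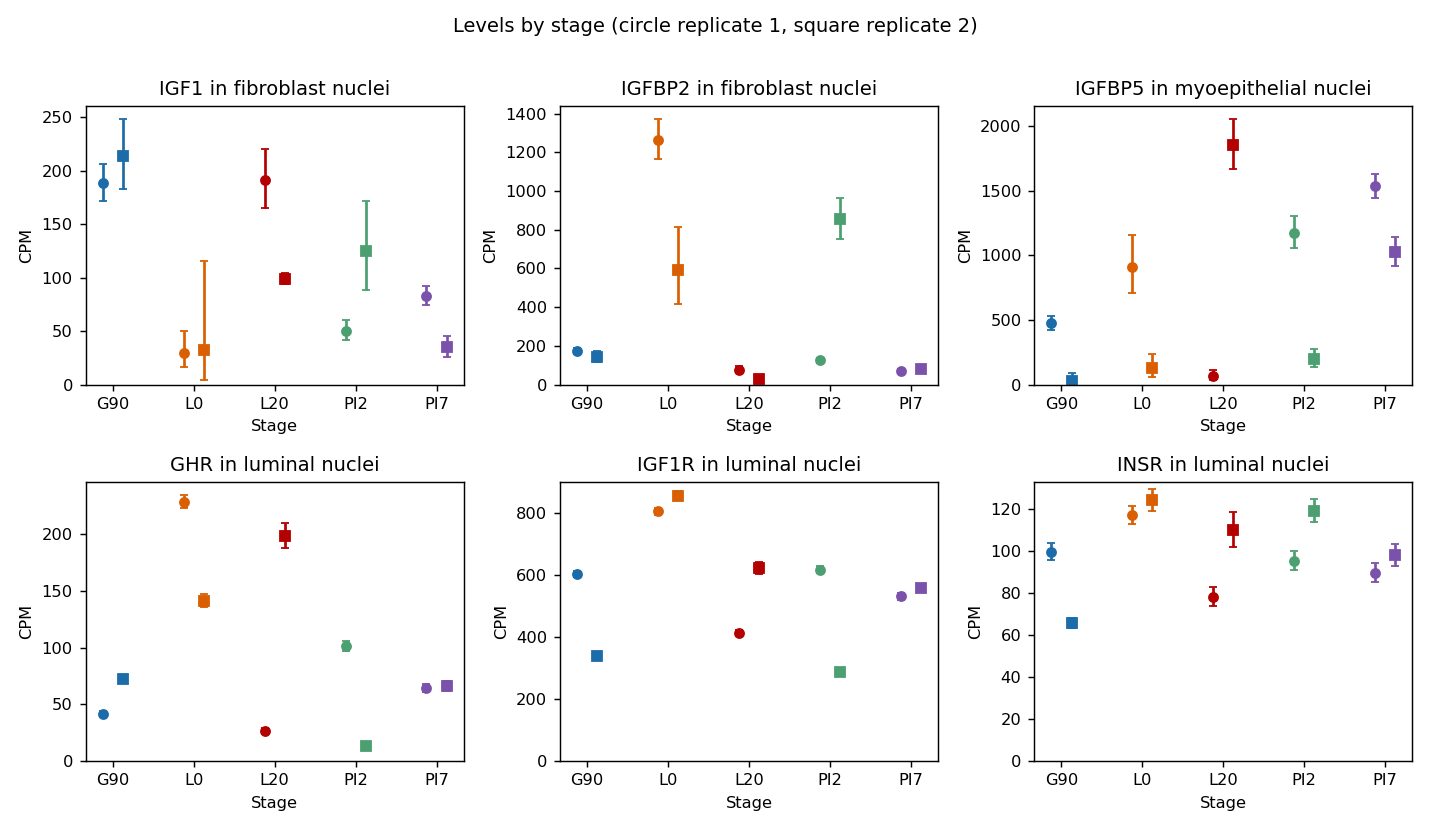
Level (CPM) by stage of IGF1 and IGFBP2 in fibroblast nuclei, IGFBP5 in myoepithelial nuclei and GHR, IGF1R and INSR in luminal nuclei, with a circle for replicate 1, a square for replicate 2 and bars for exact Poisson 95% intervals, which cover counting error only. Both L0 sows are low for IGF1 (29.98 and 32.0 CPM, from 14 and 2 UMIs) and high for IGFBP2 (1266 and 592.4 CPM) in fibroblast nuclei.

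The other genes of the pathway were read from 6 lists with 64 genes, of which 50 were tested over classes. Of the 500 pairs of gene and class, 103 (20.6%) were called, against 14.6% of all pairs. The lists were chosen with earlier results of these data known, so their shares are a description and no test. The list drawn up as IGFBP proteases and their inhibitors had 30 of 80 pairs called (37.5%). Whether each gene on it, PRSS23 among them, acts on IGFBPs was not tested. The list of other IGF receptors, IGF binding proteins and IGF2 mRNA-binding proteins had 17 of 50 called (34%). The receptor substrates and adaptors had 24 of 90 (26.7%), and the IGFBP receptors and carriers 4 of 20 (20%). Growth hormone signalling, with 11 of 80 (13.75%), and PI3K, AKT and mTOR, with 17 of 180 (9.44%), lay below the 14.6% of all pairs.

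Fibroblast nuclei had 5 of 8 protease list genes called higher and none lower, where 9.37% of all genes were called higher and 1.43% lower. The list median was 1.58 against 0.0228 for all genes. The genes called higher included ADAM12 (4.24), which cuts IGFBP3 and IGFBP5, PRSS23 (2.83), HTRA1 (2.54) and PAPPA (1.93), which frees IGF1 by cutting IGFBP4. PAPPA was called at 4.34 in mural nuclei, where PAPPA2 (1.42) was called too. STC2, an inhibitor of PAPPA, was called at 5.34 in myoepithelial nuclei, and its relative STC1 at 4.20 in blood and 3.62 in lymphatic endothelial nuclei. Luminal nuclei had 3 of 8 called lower (HTRA1 −1.99, PRSS23 −1.49 and PAPPA −1.20), where 13.4% of all genes were called lower. PRSS23 was also called higher in lymphatic (2.79) and blood endothelial nuclei (2.35), and lower in T and NK (−2.03), B and plasma (−1.82), adipocyte (−1.79) and macrophage nuclei (−1.16). HTRA1 was called higher in macrophage (1.31) and myoepithelial nuclei (1.03). In adipocyte nuclei HTRA1 (−1.97) and PAPPA (−1.98) were called lower too, and without L20 replicate 2 the calls of PRSS23 (−3.33, edgeR adjusted p = 0.149), HTRA1 (−2.04, 0.0876) and PAPPA (−1.87, 0.442) were lost. STC1 was called lower there with 0 UMIs of 1743669 in 3 sows, where 3 UMIs would be 1.72 CPM, so no fold is given. ADAM12 (−1.73) and PAPPA2 (−1.15) were lower in myoepithelial nuclei and STC2 (−1.35) in macrophage nuclei. Of these, PAPPA2 rests on 26 UMIs, with none in 3 of 10 sows, and STC2 on 53 UMIs, with none in 5 of 10 sows. ADAM28 was called at 3.44 in macrophage nuclei.

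Among the other binding proteins, IGFBP6, which prefers IGF2, was called at 4.69 in fibroblast, 2.42 in lymphatic and 2.21 in blood endothelial nuclei. It was called lower in B and plasma nuclei, which held 0 IGFBP6 UMIs of 863196 in 8 sows. There 3 UMIs would be 3.48 CPM, so no fold is given. IGFBP7 was called higher in mural (3.52), blood endothelial (3.42) and fibroblast nuclei (1.62), and lower in macrophage (−2.26), T and NK (−1.96), luminal (−1.82) and B and plasma nuclei (−1.55). IGF2BP2 and IGF2BP3 bind mRNA and are no IGF binding proteins. IGF2BP2 was called at 2.96 in lymphatic and 1.64 in blood endothelial nuclei and at −1.35 in myoepithelial nuclei. IGF2BP3 was called at 2.30 in B and plasma, 1.13 in T and NK and −1.17 in myoepithelial nuclei. The myoepithelial values of IGF2BP2 and IGF2BP3 rest on 29 and 26 UMIs, each with none in 3 of 10 sows.

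Downstream of GHR, luminal nuclei had STAT5B (2.03) and STAT5A (1.86) called higher, the factors that growth hormone and prolactin both use, and SOCS1 lower (−1.27). STAT5A was called lower in mural nuclei (−1.04) and SOCS1 higher in T and NK nuclei (2.94). CISH, a feedback inhibitor that STAT5 induces, was called at 3.69 in adipocyte and 2.27 in T and NK nuclei. It was called lower in myoepithelial (−1.77) and lymphatic endothelial nuclei (−1.54). These lower calls rest on 8 UMIs, with none in 7 of 10 sows, and on 12 UMIs, with none in 3 of 9 sows. In adipocyte nuclei the insulin pathway genes IRS2 (3.11), GRB10 (2.35), AKT2 (3.22) and FOXO1 (1.72) were called higher and PIK3R3 lower (−1.90). Without L20 replicate 2, IRS2 (2.38) and AKT2 (3.30) were called, and GRB10 (1.15, edgeR adjusted p = 0.0741), FOXO1 (0.51, 0.488), PIK3R3 (−2.59, 0.233), EIF4EBP1 (−0.03, 1) and CISH (1.99, 0.297) were not. IRS2 was called lower in lymphatic (−1.45) and blood endothelial nuclei (−1.18), and FOXO1 in macrophage (−1.58) and mural nuclei (−1.16). IRS1 was called higher in fibroblast (1.42) and in B and plasma nuclei (1.53), and lower in macrophage (−1.56), blood endothelial (−1.39), T and NK (−1.34) and lymphatic endothelial nuclei (−1.27). PIK3R3 was called higher in luminal (2.02) and mural nuclei (1.43), and EIF4EBP1 in luminal (1.17) and adipocyte nuclei (1.51). GRB14 was called at 2.05 in myoepithelial and −1.08 in blood endothelial nuclei. LRP6, a receptor that binds IGFBP4, was called at 2.04 in adipocyte (1.59 without L20 replicate 2) and 1.40 in fibroblast nuclei, and lower in T and NK (−1.77) and B and plasma nuclei (−1.57). Between stages, 0 of 1955 pairs of listed gene, class and contrast were called. An unadjusted p under 0.05 was found in 187, a count given without the share of all genes. Among hormone-sensing nuclei PRSS23 (1.13) was the only called gene of 48.

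In the gland sections, each spot holds RNA of several cells, and 1 section per stage allowed no test. Over all spots, IGFBP2 stood at 171.3 CPM at G90 (exact Poisson 95% interval 167.4 to 175.3) and 332.7 CPM at PI2 (324.3 to 341.3). IGFBP5 stood at 146.8 and 288.0 CPM, and IGFBP4 at 50.6 and 30.7 CPM. The receptors and IGF1 gave few UMIs: GHR 151 and 33, IGF1 233 and 52, IGF1R 292 and 149 and INSR 105 and 79. At G90 IGF1R was 6.82 CPM in the section and 335.4 to 532.5 CPM in nuclei, a different RNA fraction and kit, so the scales were not compared.

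Spots were then chosen as the 10% with the highest share of UMIs from fibroblast, adipocyte or luminal markers. IGFBP4 was 70.2 CPM in fibroblast marker spots, 77.0 CPM in adipocyte marker spots and 43.1 CPM in luminal marker spots at G90, and 88.6, 55.8 and 14.8 CPM at PI2. The intervals of fibroblast and luminal marker spots did not overlap (57.2 to 85.3 against 36.8 to 50.3 at G90, and 64.9 to 118.2 against 9.88 to 21.2 at PI2). GHR at G90 was 11.12 CPM in fibroblast, 16.3 CPM in adipocyte and 2.65 CPM in luminal marker spots, with intervals of 6.36 to 18.1, 9.79 to 25.4 and 1.27 to 4.87, and IGF1 was 13.9, 16.3 and 5.03 CPM. IGFBP2 was 200.2 against 132.9 CPM at G90 and 425.8 against 216.8 CPM at PI2 in fibroblast and luminal marker spots. For IGFBP5 the order was not fixed, with 181.4 against 209.4 CPM at G90 and 470.2 against 432.5 CPM at PI2. Of the 14 pairs of member and section, 12 had the higher level in fibroblast marker spots. Of all genes with at least 30 UMIs in the section, 30.3% of 12501 at G90 and 39% of 11466 at PI2 did. The genes that chose the spots were left out. The count of 12 takes any higher level, whatever the counting error, and GHR, IGF1 and INSR gave few UMIs at PI2. The adipocyte marker spots of G90 also held more of the held-out fibroblast markers than all spots (2149 against 1204 CPM), so they are no pure adipocyte regions.

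In milk, 3010 luminal cells of L0 and 1124 of L20 were sorted by the same markers, with 1 library per stage and no test. IGFBP5 stood higher in luminal milk cells than in macrophages, at 10.2 CPM (9.36 to 11.04) at L0 and 25.9 CPM (22.8 to 29.3) at L20, against 0.194 and 0.170 CPM in macrophages. At L0 10.5% and at L20 9.61% of luminal cells held an IGFBP5 UMI, and 0.0999% and 0.0354% of neutrophils did. Median depths in luminal cells were 2858 to 17195 UMIs and in neutrophils 1118 to 1184 UMIs. GHR in luminal cells was 9.45 CPM (8.67 to 10.3) at L0 and 1.35 CPM (0.720 to 2.31) at L20. IGF1R was 7.68 CPM (6.98 to 8.44) at L0 and 3.33 CPM (2.28 to 4.70) at L20. INSR was 4.15 CPM (3.64 to 4.72) and 3.43 CPM (2.36 to 4.82), with intervals that overlap.

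Milk macrophages held more IGF1R than luminal milk cells, at 33.5 CPM (28.7 to 38.9) at L0 and 26.7 CPM (24.3 to 29.2) at L20. This order is the reverse of that in gland nuclei, where luminal nuclei stood above macrophage nuclei by 1.57 on the log2 scale (SE 0.17, edgeR adjusted p = 1.13e-13, with 29.4% of all genes called between these classes). The milk values come from whole cells, with 1 library per stage, and the gland value from nuclei over 5 stages with another kit. The part of these differences in the order was not tested. Caseins made up 195511 and 226159 CPM of the luminal milk cells, which lowers the CPM of every other gene in them. The part of caseins in the order was not tested either. IGF1 in milk macrophages was 5.79 CPM at L20 (4.72 to 7.03, 102 UMIs in 2433 cells) and 0.582 CPM at L0 (0.120 to 1.70, 3 UMIs in 1113 cells). In luminal milk cells IGF1, IGFBP2 and IGFBP4 gave 11, 13 and 3 UMIs at L0 and 3, 0 and 1 at L20.

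**Figure D4:**
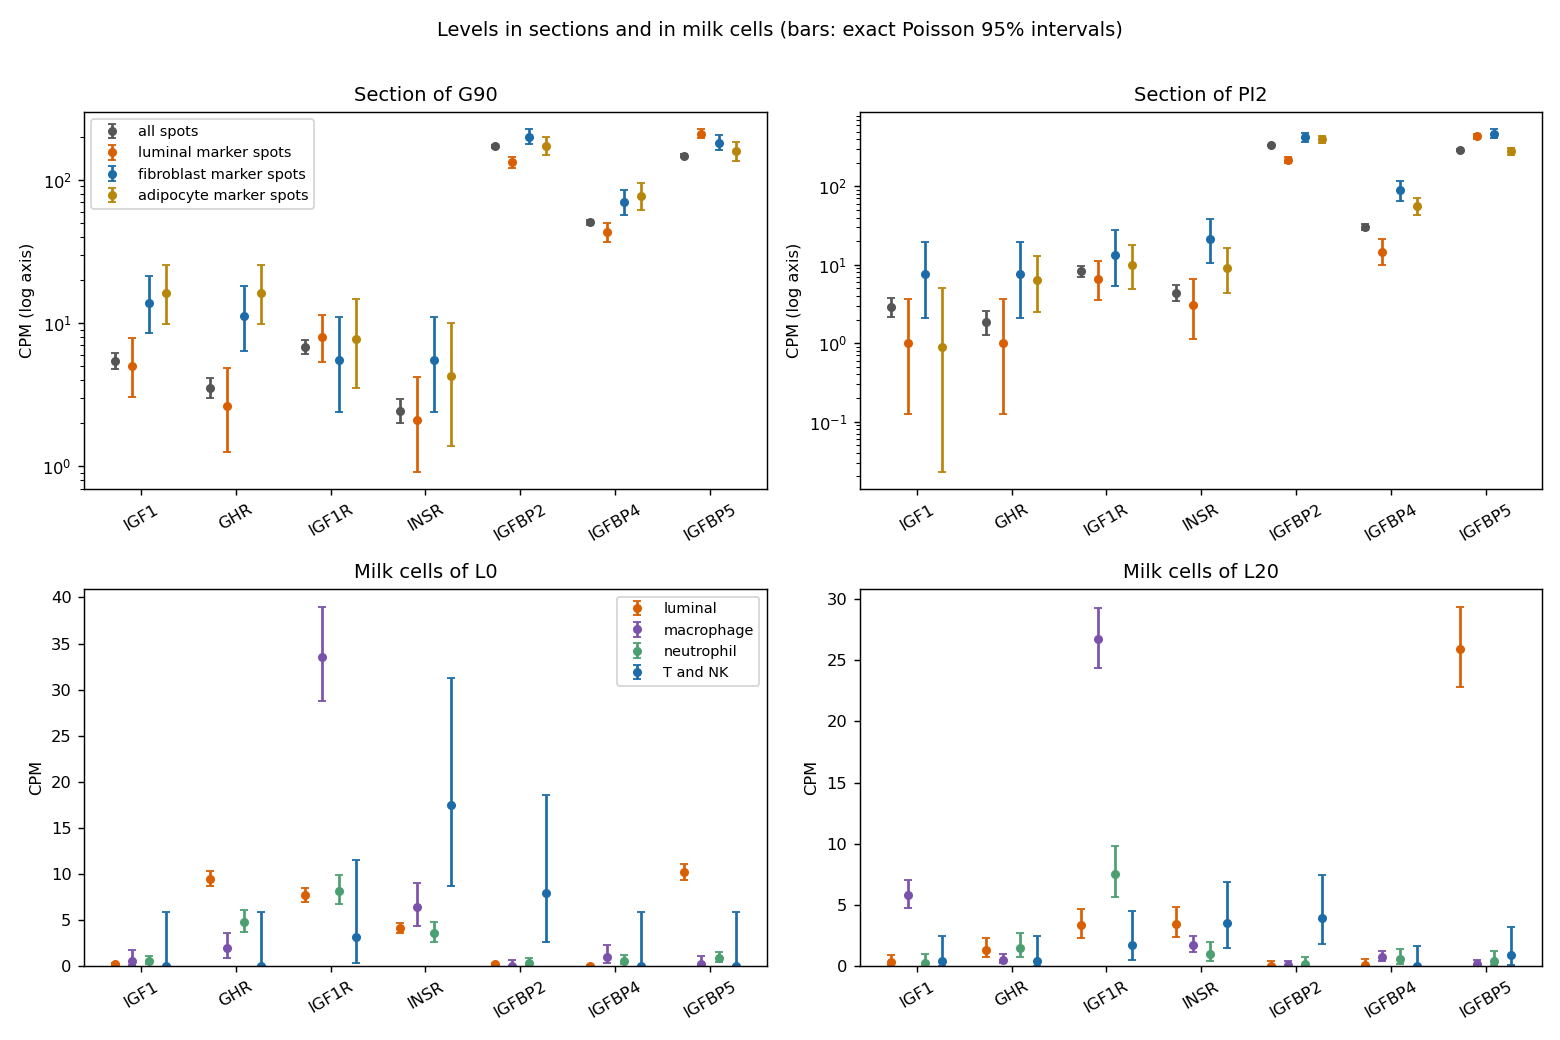
Level (CPM) of each member in the sections of G90 and PI2 (upper panels, log axis) by spots with the highest share of class markers, and in milk cells of L0 and L20 (lower panels, linear axis) by cell class, with exact Poisson 95% intervals. IGFBP5 in luminal milk cells (10.2 and 25.9 CPM) and IGF1R in milk macrophages (33.5 and 26.7 CPM) stand out.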

How the data were processed

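The authors deposited UMI counts per gene and barcode of nuclei and milk cells (GEXSCOPE kits, CeleScope) and per spot of sections (Space Ranger), on Sscrofa11.1 and without normalization. The Space Ranger version is 1.2.0 in the submitters' processing notes and differs in the file header. Barcodes with under 300 genes or over 25% mitochondrial UMIs were dropped. A class needed at least 2 of its markers and more than any other class. This scoring, the tests between pairs of classes and the test of lactation effects between classes were chosen after seeing the data. The members and lists were chosen with earlier results of these data known. Doublets and free RNA were not removed. UMIs were summed per sow and class, since cells are not replicates, and tested with edgeR 4.0.16 (TMM, its filter on low counts), with DESeq2 1.42.0 as an alternative. The study's own tests over cells were not used. The 2 sows of a stage are the replicates. The method was tested on simulated data. Of 66 genes changed by 3 on the log2 scale between L0 and G90 in fibroblast nuclei 30.3% were called. Of 67 genes so changed in fibroblast nuclei against the other classes all were called. No other class was changed in that comparison, so it does not cover adipocyte or mural nuclei, which had fewer sows. Intervals cover counting error only. Named genes are all members, up to 4 called genes with the highest absolute fold change per pathway list and class, and the 3 genes most like each member. Gene positions come from RefSeq. Spot positions were not used here. A result on 1 pathway gene is not reported here.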

Additional observations from a re-analysis of the deposited data

Results flagged for a closer look

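The 4 lactating and the 6 other glands were searched for a gland that stands far from the rest, for 7 members in all nuclei and in 4 classes. Of 70 groups 7 held such a gland. The cut is set at about 1 in 20 for normal values in separate groups. These groups share glands and mix stages, so no chance rate is known for them. L20 replicate 2 stood above the other lactating glands in IGF1 of all nuclei (77.0 CPM, others 4.28 to 14.5), in IGF1 of luminal nuclei (10.4 CPM, others 1.74 to 2.65), in IGFBP5 of all nuclei (354.5 CPM, others 34.0 to 69.2) and in IGFBP5 of luminal nuclei (236.7 CPM, others 32.7 to 61.2). PI2 replicate 2 stood above the other glands outside lactation in IGFBP2 of fibroblast nuclei (854.6 CPM, others 69.6 to 171.8) and of myoepithelial nuclei (231.7 CPM, others 44.4 to 113.9). G90 replicate 2 stood apart in IGF1 of myoepithelial nuclei (31.1 CPM, others 0 to 9.99), from 38 such nuclei.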

How the results depend on the processing

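The 37 calls of member and class were 34 to 38 over the alternatives with all classes and members. Leaving out each library gave 30 to 38, where the 30 without L20 replicate 2 leave out IGFBP2, which could not be estimated there. Chosen after seeing the data, the fits with adipocyte nuclei left out gave 35 of 63 calls, and 33 with L20 replicate 2 left out too. Of 687 single values of these calls under alternatives none changed sign and 38 lost the call, in 13 of the 37. Between stages the count of 0 in the whole gland was 1 with DESeq2 (IGF1, L20 against L0, adjusted p = 0.0340). Within classes it was 2 with DESeq2, 5 without a filter on low counts (fibroblast IGFBP2 in 4 contrasts and IGF1 in 1) and 1 when the fit held no stage but those 2 being compared (luminal GHR, L0 against G90, 1.96, adjusted p = 0.0465); the cause was not tested. With the replicate number as a replicate block the counts were 0 and 0. These stage counts stand without the share of all genes called under the same setting. No change of the members is read from them. Deviations of same-numbered glands had r from −0.498 to 0.365 over 10 pairs of stages. With 2 glands per stage, these values cannot show whether the numbers pair samples, and the main fits treat the glands as unpaired. The hormone-sensing call of IGFBP2 was made in all alternatives run. The 12 section pairs were 11 in both alternatives. The lowest sums per class ran from 27898 UMIs (T and NK) to 6458350 UMIs (luminal).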
